A study of Mus musculus with 6 samples.

Results

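Polycomb repressive complex 2 (PRC2) was examined through the transcripts of 10 subunit genes among the 16668 genes listed for E14 mouse embryonic stem (mES) cells. The subunits were taken as a fixed list of names, namely *Ezh2*, *Ezh1*, *Eed*, *Suz12*, *Rbbp4*, *Rbbp7*, *Mtf2*, *Phf19*, *Jarid2* and *Aebp2*, and all 10 were found. The study set out to determine how depletion of the H2A ubiquitin ligases Ring1B (gene *Rnf2*) and Dzip3 affects transcription. E14 is a feeder-independent line of strain 129/Ola, here at passage 3 to 5. The cells were kept without feeders in 2i medium with LIF, that is, N2B27 with 1 μM PD0325901, 3 μM CHIR99021 and 1000 U/ml LIF. The cells had received control siRNA, siRNA against Ring1B or siRNA against Dzip3, according to the methods of the study, and the genotype labels read wild type, Ring1B knockdown and Dzip3 knockdown. The labels give 2 libraries each of control, Ring1B-KD and Dzip3-KD, which the study calls biological duplicates. Whether they came from separate cultures is not stated, so p-values measure only the spread between libraries.

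File names carry a condition word of their own, and for 4 of the 6 libraries that word was not the labelled condition. Files numbered 1 to 3 (set 1) belong to control 1, control 2 and Ring1B-KD 1 by label, and carry the words control, Ring1BKD and Dzip3KD. Files numbered 4 to 6 (set 2) belong by label to Ring1B-KD 2 and to Dzip3-KD 1 and 2, and carry the same words in the same order. Values below are given in this order, set 1 first. Neither a label nor a file word is taken here as proof of what was depleted. *Rnf2* was at 30.6, 20.4 and 26.8 RPKM in set 1 and at 28.8, 19.4 and 28.2 RPKM in set 2. Its mean was 25.5 ± 7.17 RPKM (SD, n = 2) under the control label and 27.8 ± 1.38 RPKM (SD, n = 2) under Ring1B-KD, while the 2 libraries with the file word Ring1BKD had the lowest levels. By file word, with the set as a term, its difference from control was -0.55 on the log2 scale (SE 0.13, limma adjusted p 0.232). *Dzip3* was at 2.24, 2.68 and 1.18 RPKM in set 1 and at 1.89, 1.70 and 1.31 RPKM in set 2, lowest in the 2 libraries with the file word Dzip3KD. That difference was -0.45 (SE 0.21, limma adjusted p 0.754), and neither passed the threshold of 0.05. Before adjustment the limma p was 0.00302 for *Rnf2*, which ranked 150 of 11538 genes, and 0.0698 for *Dzip3*, which ranked 1059.

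RPKM counts reads per kilobase of exon, scaled to the mapped reads of a library, so it compares levels between genes per length. The libraries held between 3015349 and 3583612 mapped reads, as worked out from the steps between low RPKM values. Correlations of log2(RPKM + 1) between libraries were taken over the 11538 genes that averaged 0.5 RPKM or more. They were 0.960 to 0.974 for pairs within a set and 0.940 to 0.957 for pairs from different sets. Both libraries labelled control are in set 1 and both labelled Dzip3-KD are in set 2, so for that comparison the label and the set cannot be told apart. The 8 embryonic stem cell markers examined, *Pou5f1*, *Sox2* and *Nanog* among them, each averaged at least 1 RPKM and summed to between 1049 and 1372 RPKM per library. Of 5 primitive endoderm markers, 0 reached that level.

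PRC2 methylates lysine 27 of histone H3, a mark of repressed developmental genes that the PRC1 complex of Ring1B can bind. Ezh2 or its paralog Ezh1 carries the methyltransferase activity, Suz12 holds the complex together, Eed binds the methylated lysine, and Rbbp4 or its paralog Rbbp7 binds histones. Accessory proteins join this core in alternative forms: Mtf2 and Phf19 are Polycomb-like proteins of one form, PRC2.1, while Jarid2 and Aebp2 belong to the other, PRC2.2. In mouse embryos PRC2 is essential, and mES cells without it can be kept but differentiate poorly.

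The subunits spanned a wide range of levels. In order of mean RPKM over the 6 libraries, *Mtf2* (48.2 ± 3.09, SD, n = 6) came first and *Suz12* (43.0 ± 5.44, SD, n = 6) second, followed by *Rbbp7* (34.97 ± 10.2, SD, n = 6), *Jarid2* (26.96 ± 0.611, SD, n = 6), *Eed* (25.3 ± 3.35, SD, n = 6) and *Rbbp4* (23.5 ± 2.80, SD, n = 6). *Aebp2* (14.4 ± 1.34, SD, n = 6) and *Ezh2* (13.5 ± 2.18, SD, n = 6) were lower, and *Ezh1* (2.76 ± 0.826, SD, n = 6) and *Phf19* (0.708 ± 0.498, SD, n = 6) lowest. *Ezh1* held rank 9 and *Phf19* rank 10 in every library, while *Rbbp7* held ranks from 1 to 6. *Mtf2* thus exceeded 97.7% of all listed genes by its mean level, and *Phf19* exceeded 34.3%.

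Neighbours in this order were compared within libraries by an exact two-sided paired permutation test over 64 sign flips, whose smallest possible p is 0.03125. The order, and so the choice of pairs, came from the same 6 libraries. These p-values therefore describe how steady the order was and are no separate support for it. That smallest value was reached for 4 of the 9 neighbouring pairs, with the same direction in 6 of 6 libraries. They were *Mtf2* over *Suz12* (1.13-fold), *Rbbp4* over *Aebp2* (1.62-fold), *Ezh2* over *Ezh1* (5.01-fold) and *Ezh1* over *Phf19* (4.78-fold). After Benjamini-Hochberg adjustment over the 9 pairs each exact p became 0.0703, so none passed 0.05. *Ezh2* against *Ezh1* was also listed as a test of its own, with 1 pair and no adjustment, though with earlier results of these data known. That test uses the same ratios from the same 6 libraries. Its exact paired permutation p of 0.03125, the smallest possible, is therefore not a second result. The other 5 pairs differed by less than their spread between libraries, with exact p from 0.156 to 0.406. Of all 45 pairs of subunits, 37 kept 1 order in 6 of 6 libraries, *Suz12* over *Jarid2*, *Eed* and *Rbbp4* among them. The other 8 were *Rbbp7* with *Mtf2*, *Suz12*, *Jarid2*, *Eed* and *Rbbp4*, and the neighbours *Jarid2* and *Eed*, *Eed* and *Rbbp4*, and *Aebp2* and *Ezh2*.

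**Figure D1:**
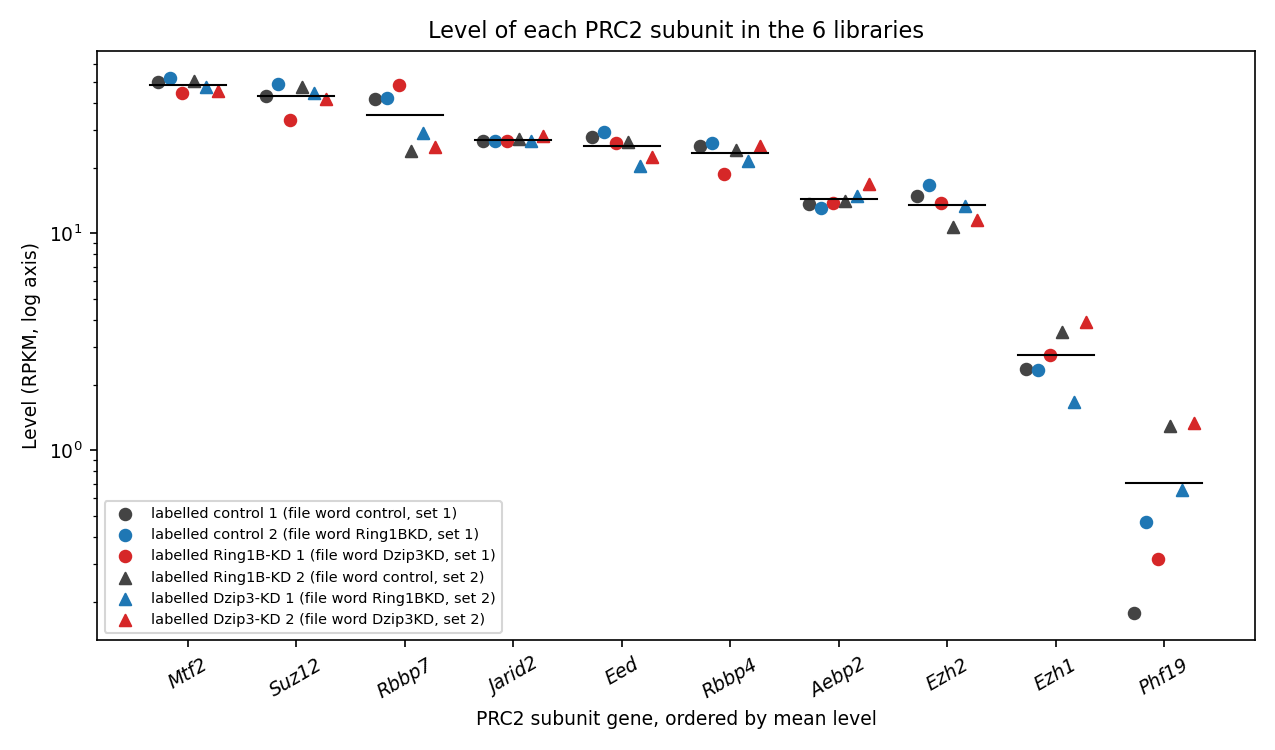
Level of each PRC2 subunit gene (RPKM, log axis) in the 6 libraries, with the subunits in order of mean level. Colours give the file word, circles are set 1, triangles are set 2, and black lines are means of 6 libraries. *Mtf2* and *Suz12* lie near the top, *Ezh1* and *Phf19* at the bottom, and for *Rbbp7* the triangles (24.0 to 29.0 RPKM) all lie under the circles (41.5 to 48.1 RPKM).

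The catalytic paralogs were compared first. *Ezh2* (minus strand of chromosome 6, 47480273 to 47545340, mm9) was at 14.9, 16.6 and 13.8 RPKM in set 1 and at 10.7, 13.3 and 11.5 RPKM in set 2, on 94 to 152 reads. All 3 libraries of set 1 were above all 3 of set 2, and within each set the library with the file word Ring1BKD (labelled control 2 and Dzip3-KD 1) was the highest. *Ezh1* (minus strand of chromosome 11, 101052429 to 101087777, mm9) was at 2.36, 2.36 and 2.75 RPKM in set 1 and at 3.52, 1.67 and 3.91 RPKM in set 2. These rest on only 23 to 59 reads, and the sets overlapped.

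The ratio of *Ezh2* to *Ezh1* does not depend on how a library is scaled. It was 6.31, 7.05 and 5.02 in set 1 and 3.03, 7.96 and 2.94 in set 2. *Ezh1* therefore made up 11.2% to 25.4% of the summed RPKM of both paralogs. The highest shares, 24.8% and 25.4%, belonged to Ring1B-KD 2 and Dzip3-KD 2 by label. The lowest shares, 12.4% and 11.2%, were in those labelled control 2 and Dzip3-KD 1, which both carry the file word Ring1BKD. The *Ezh1* change for that word was -0.38 on the log2(RPKM + 1) scale (SE 0.24, limma adjusted p 0.683) and that of *Ezh2* was 0.22 (SE 0.14, limma adjusted p 0.701). Within set 1 the *Ezh1* difference was -0.00378 and within set 2 it was -0.76, so it rests on 1 pair of libraries.

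The scaffold and reader subunits stood higher. *Suz12* (plus strand of chromosome 11, 79806608 to 79847625, mm9) was at 42.8, 48.9 and 33.3 RPKM in set 1 and at 47.0, 44.1 and 41.7 RPKM in set 2, on 491 to 733 reads. In each set the library with the file word Dzip3KD (labelled Ring1B-KD 1 and Dzip3-KD 2) was the lowest. *Eed* (minus strand of chromosome 7, 97103166 to 97129493, mm9) was at 27.9, 29.2 and 26.0 RPKM in set 1 and at 26.3, 20.4 and 22.4 RPKM in set 2. Both libraries labelled Dzip3-KD were below the other 4 for *Eed*, and the sets overlapped.

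The histone-binding paralogs Rbbp4 and Rbbp7 also serve in other chromatin complexes. *Rbbp7* (plus strand of chromosome X, 159198334 to 159217024, mm9) was at 41.5, 42.2 and 48.1 RPKM in set 1 and at 24.0, 29.0 and 25.1 RPKM in set 2, on 284, 329 and 369 reads against 180, 215 and 204. The sets did not overlap. *Rbbp4* (minus strand of chromosome 4, 128984344 to 129012614, mm9) was at 25.1, 26.0 and 18.8 RPKM in set 1 and at 24.1, 21.4 and 25.3 RPKM in set 2, with overlapping sets. No whole reads could be recovered for *Rbbp4*, so the reads behind it are unknown. The share of *Rbbp7* in the sum of both paralogs was 62.3%, 61.9% and 72.0% in set 1 and 49.9%, 57.5% and 49.7% in set 2. Its mean was 65.4% ± 5.71 (SD, n = 3) in set 1 and 52.4% ± 4.42 (SD, n = 3) in set 2.

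Among accessory subunits, *Mtf2* (plus strand of chromosome 5, 108494693 to 108538023, mm9) was at 49.7, 52.2 and 44.3 RPKM in set 1 and at 50.3, 47.4 and 45.2 RPKM in set 2. The library with the file word Dzip3KD was again the lowest of its set, with 781 and 847 reads. *Phf19* (minus strand of chromosome 2, 34749277 to 34769546, mm9), the other Polycomb-like gene of the list, was at 0.177, 0.467 and 0.317 RPKM in set 1 and at 1.29, 0.654 and 1.34 RPKM in set 2. These values stand for 2, 6 and 4 reads against 16, 8 and 18. *Phf19* was the lowest member in every library and higher in each library of set 2 than in any of set 1. It passed the expression filter (a mean of at least 0.5 RPKM over 6 libraries) only through set 2, and was tested for that reason alone. *Phf19* made up 0.355% to 2.88% of the sum of *Phf19* and *Mtf2*.

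*Jarid2* (plus strand of chromosome 13, 44824843 to 45017012, mm9) was the steadiest subunit, at 26.7, 26.7 and 26.7 RPKM in set 1 and at 27.1, 26.5 and 28.1 RPKM in set 2. *Aebp2* (plus strand of chromosome 6, 140570970 to 140626993, mm9), which with Jarid2 defines PRC2.2, was at 13.7, 13.0 and 13.8 RPKM in set 1 and at 14.1, 14.9 and 16.8 RPKM in set 2. The sets did not overlap for *Aebp2*, though 13.8 RPKM in set 1 and 14.1 RPKM in set 2 were close neighbours. *Mtf2* held 49.4% to 56.5% of the summed RPKM of the 4 accessory genes. *Jarid2* held 33.8% to 38.4% of the sum of *Jarid2* and *Mtf2*. This sets the transcript of 1 PRC2.2 gene beside that of 1 PRC2.1 gene and does not measure the amounts of the 2 forms.

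**Figure D2:**
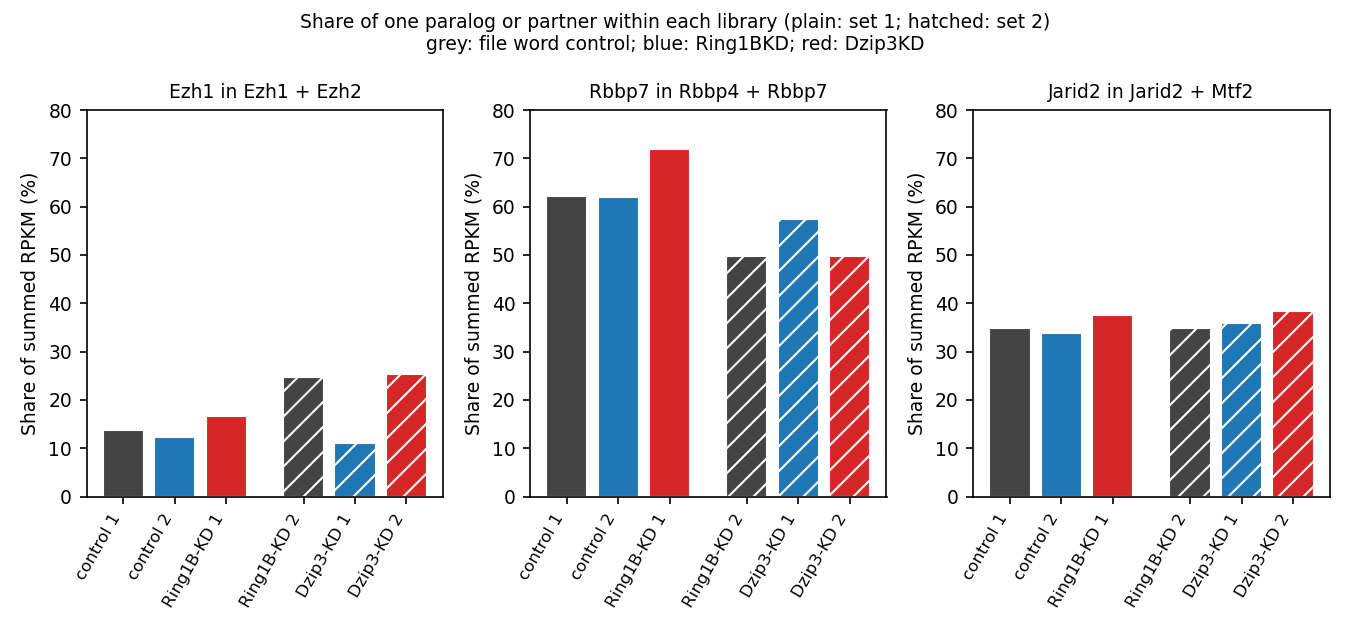
Share of *Ezh1* in *Ezh1* plus *Ezh2*, of *Rbbp7* in *Rbbp4* plus *Rbbp7*, and of *Jarid2* in *Jarid2* plus *Mtf2* (percent of summed RPKM, axes from 0), with 1 bar for each library under its label. Plain bars are set 1, hatched bars are set 2, and colours give the file word. The *Rbbp7* share is 61.9% or more in set 1 and 57.5% or less in set 2, the *Ezh1* share varies most within set 2, and the *Jarid2* share stays between 33.8% and 38.4%.

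For the 9 subunits with whole reads, the spread over the 6 libraries was set against counting error, as a chi-square of reads over its degrees of freedom, where 1 means counting error alone. It was 0.299 for *Jarid2*, less than counting error gives on average. It was 23.0 for *Rbbp7* and 10.2 for *Suz12*, and from 2.88 to 4.29 for the other 6. The median over the 7675 genes that averaged 20 reads or more was 2.44, and their 10th and 90th percentiles were 0.736 and 10.5. *Jarid2* therefore lay under the 10th percentile and *Rbbp7* over the 90th. PCR duplicates cannot be told from separate molecules, so this ratio covers counting error only.

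To determine whether the labelled groups differed, a limma fit on log2(RPKM + 1) was made over the 11538 genes that passed the filter. Of the 10 subunits, 0 had a limma adjusted p under 0.05 in the libraries labelled Ring1B-KD or Dzip3-KD against control, and so had 0% of all genes. A fit to the recovered reads with voom weights also gave 0 genes for either label. At an unadjusted p under 0.05 there were 0 subunits for Ring1B-KD, where 5.10% of all genes were found, and 1 for Dzip3-KD, where 12.2% were found. That 1 was *Eed*, which averaged 28.5 ± 0.921 RPKM (SD, n = 2) under the control label and 21.4 ± 1.41 RPKM (SD, n = 2) under Dzip3-KD. It changed by -0.40 on the log2 scale (SE 0.16), with a limma adjusted p of 0.393. *Rbbp7* changed by -0.62 (SE 0.29, limma adjusted p 0.420) and *Phf19* by 0.58 (SE 0.33, limma adjusted p 0.490) in the same comparison. With the set as a term the changes of *Rbbp7* and *Phf19* took the opposite sign. They were 0.36 (SE 0.23, limma adjusted p 0.855) and -0.22 (SE 0.47, limma adjusted p 0.967). That of *Eed* was -0.41 (SE 0.23, limma adjusted p 0.840). This fit reaches Dzip3-KD only through the libraries labelled Ring1B-KD, so it does not show that *Eed* follows the label. In the libraries labelled Ring1B-KD the changes ran from -0.35 for *Ezh2* (SE 0.19, limma adjusted p 0.902) to 0.40 for *Phf19* (SE 0.33, limma adjusted p 0.923).

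Counted by overlap, the label Dzip3-KD stood entirely above control for 2 of 10 subunits (*Phf19* and *Aebp2*) and entirely below for 4 (*Ezh2*, *Eed*, *Rbbp7* and *Mtf2*). Over all genes tested these shares were 20.4% and 30.3%. *Phf19* passed the filter only through set 2, which holds both libraries labelled Dzip3-KD, so its place in this count is no support. For the label Ring1B-KD, 3 subunits (*Ezh1*, *Jarid2* and *Aebp2*) stood above and 3 (*Ezh2*, *Eed* and *Rbbp4*) below, against 14.9% and 18.9% of all genes. All 3 of the former, and *Eed*, changed by less than their SE. *Jarid2* changed by only 0.01 on the log2 scale (SE 0.16) and *Aebp2* by 0.06 (SE 0.17). The median log2 change of the 10 subunits was -0.11 for each label, and that of all genes was -0.02 for Ring1B-KD and -0.07 for Dzip3-KD.

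The libraries were next compared by file word within each set, 1 library against 1, with the sample labels as given above. Against the word control, Ring1BKD was higher in both sets for 2 of 10 subunits (*Ezh2* and *Rbbp7*) and lower in both for 2 (*Ezh1* and *Jarid2*). Over all genes tested, 18.5% were higher and 40.6% lower in both sets. *Ezh2* was higher by a log2 difference of 0.15 in set 1, as control 2 against control 1 by label, and of 0.30 in set 2, as Dzip3-KD 1 against Ring1B-KD 2. For *Jarid2* the differences were only -0.000245 and -0.03. These directions depend on the scaling: with each library scaled to a common 75th percentile, 6 of 10 were higher in both sets (*Suz12*, *Mtf2*, *Jarid2* and *Aebp2* beside *Ezh2* and *Rbbp7*) and 0 lower, against 33.2% and 22.9% of all genes. As deposited, for the other 6 subunits the sets gave opposite signs, from 0.32 and -0.47 for *Phf19* to -0.06 and 0.08 for *Aebp2*.

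Dzip3KD was higher than the word control in both sets for 5 of 10 subunits (*Ezh1*, *Rbbp7*, *Phf19*, *Jarid2* and *Aebp2*) and lower in both for 3 (*Eed*, *Suz12* and *Mtf2*). Over all genes these shares were 22.3% and 29.5%. Under the 75th percentile scaling *Ezh2* joined the former and *Eed* left the latter, so 6 were higher and 2 lower, against 29.0% and 22.7% of all genes. *Suz12* differed by -0.36 in set 1, as Ring1B-KD 1 against control 1 by label, and by -0.17 in set 2, as Dzip3-KD 2 against Ring1B-KD 2. The *Mtf2* differences were -0.16 and -0.15, alike in size. Both comparisons use the same control-word libraries, so their counts are not independent.

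**Figure D3:**
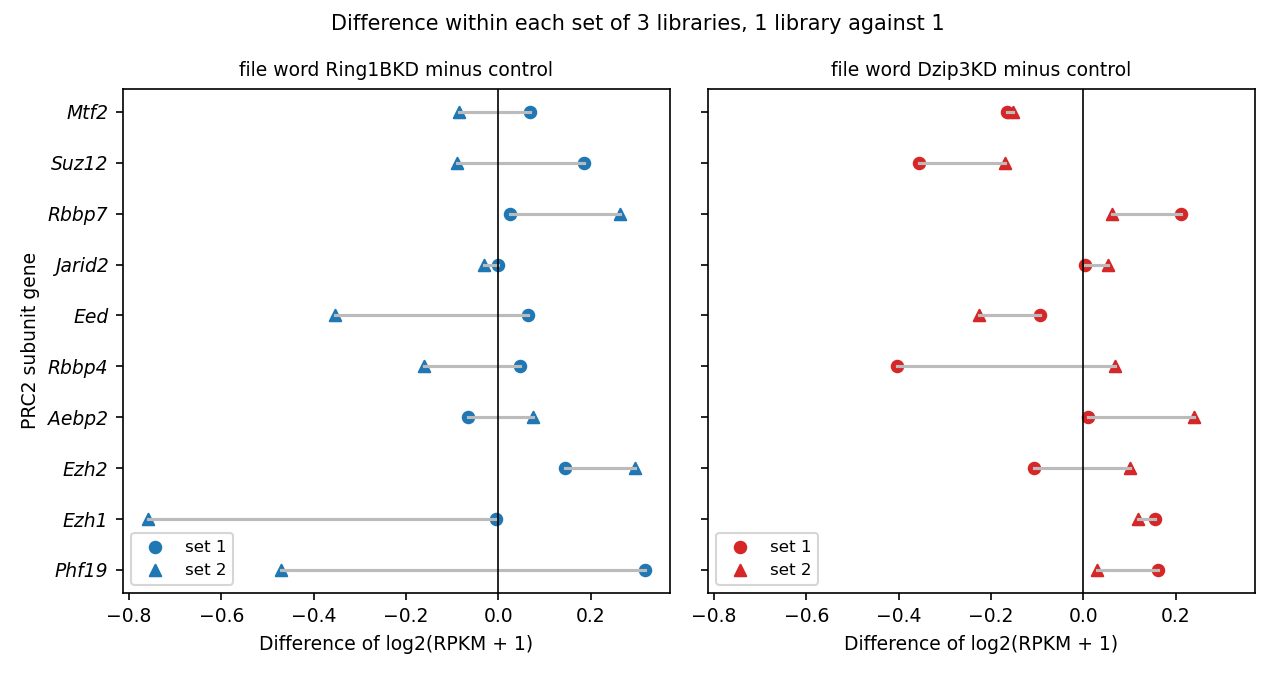
Difference of log2(RPKM + 1) from the library with the file word control, for the word Ring1BKD (left) and Dzip3KD (right), for each of the 10 PRC2 subunit genes. Circles are set 1 and triangles set 2, each 1 library against 1, and grey lines join the sets. In the values as deposited, *Suz12*, *Mtf2* and *Eed* (not *Eed* under the 75th percentile scaling) lie left of 0 in both sets for Dzip3KD, *Ezh2* and *Rbbp7* lie right of 0 in both sets for Ring1BKD, and *Ezh1* reaches -0.76 in set 2 only.

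In 1 limma fit over all 6 libraries, with file word and set as terms, no subunit passed for any word. For Ring1BKD against control, 48 genes, or 0.416%, had a limma adjusted p under 0.05, and 8.31% an unadjusted p under 0.05, of which 0 were subunits in either case. The smallest adjusted p of a subunit was 0.683, for *Ezh1*. For Dzip3KD against control, 0 genes passed (1 with voom weights on recovered reads), 0 subunits among them, at a smallest subunit adjusted p of 0.774 for *Suz12*, which had a log2 change of -0.26 (SE 0.15). Here 6.52% of genes and 0 subunits had an unadjusted p under 0.05. For Dzip3KD against Ring1BKD, 78 genes, or 0.676%, passed, and 10.1% had an unadjusted p under 0.05, of which again 0 were subunits, with *Ezh1* at 0.52 (SE 0.24, limma adjusted p 0.520) and *Suz12* at -0.31 (SE 0.15, limma adjusted p 0.534). The medians of the subunits were -0.01 for Ring1BKD and 0.01 for Dzip3KD against control, beside -0.08 and -0.03 over all genes. With 2 degrees of freedom left in each gene, a change that misses the threshold is not shown to be absent.

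The same fit gives the difference between the sets, and there 1 subunit passed. *Rbbp7* was lower in set 2, averaging 26.0 ± 2.63 RPKM (SD, n = 3) where set 1 averaged 43.9 ± 3.66 RPKM (SD, n = 3). The log2 difference was -0.74 (SE 0.12, limma adjusted p 0.0142), with the same direction for each of the 3 file words. It was the only 1 of 10 subunits with an adjusted p under 0.05. Of all genes tested, 7.62% were called in either direction, and 3.67% of all genes tested were called lower. In the alternatives run, the *Rbbp7* difference ranged from -0.84 to -0.65. The adjusted p stayed under 0.05 in 11 of 12 of them, each fit without 1 library included, and was 0.0975 when no filter on low values was applied.

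*Ezh2* averaged 15.1 ± 1.43 RPKM (SD, n = 3) in set 1 and 11.8 ± 1.35 RPKM (SD, n = 3) in set 2. Its difference of -0.33 (SE 0.12, limma adjusted p 0.125) did not pass. *Phf19* averaged 0.320 ± 0.145 RPKM (SD, n = 3) in set 1 and 1.10 ± 0.384 RPKM (SD, n = 3) in set 2, a difference of 0.66 (SE 0.21, limma adjusted p 0.0963). On the recovered reads with voom weights it was 1.65 (limma adjusted p 0.0316). Since *Phf19* entered the test only through set 2, on 2 to 18 reads, neither value counts as support for a difference. These 3 subunits had an unadjusted p under 0.05, as did 26.5% of all genes. The sets did not overlap for 4 of 10 subunits (*Ezh2* and *Rbbp7* lower in set 2, *Phf19* and *Aebp2* higher), against 28.6% of all genes. The place of *Phf19* in both counts is no support either, for the same reason. By count the subunits were thus near the background of all genes, while *Rbbp7* ranked 181 of 11538 by p. The summed level of the 6 core genes was 143 to 165 RPKM in set 1 and 130 to 136 RPKM in set 2, and that of the 4 accessory genes was 85.1 to 92.3 RPKM and 89.5 to 92.8 RPKM. The core sum includes *Rbbp7*, so it is no separate result about the core. Of the other core genes *Ezh2* alone did not overlap between the sets, while *Ezh1*, *Eed*, *Suz12* and *Rbbp4* did. *Rbbp4*, by contrast, differed by 0.03 (SE 0.15, limma adjusted p 0.920). The smaller p of *Rbbp7* than of *Rbbp4* is not a test of their difference, which was not run.

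**Figure D4:**
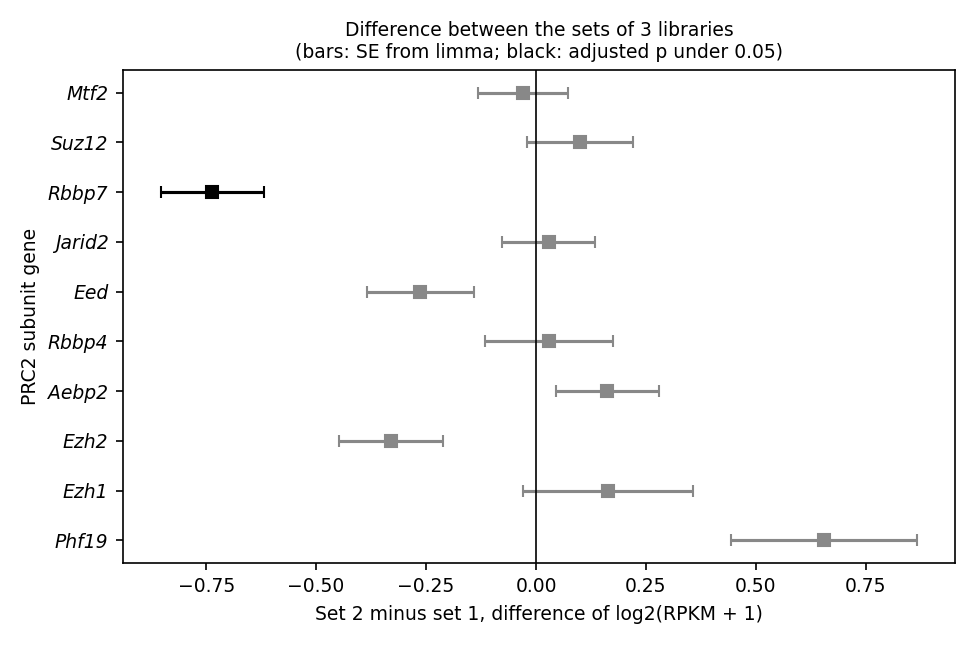
Difference between set 2 and set 1 in log2(RPKM + 1) for each PRC2 subunit gene, from the limma fit with file word and set as terms over 6 libraries. Bars are SE, and black marks an adjusted p under 0.05, which is the case for *Rbbp7* alone, at -0.74. *Phf19* (0.66) and *Ezh2* (-0.33) lie farthest from 0 among the rest.

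Some marker genes also differed between the sets. Of the 8 embryonic stem cell markers, 3 (*Esrrb*, *Tfcp2l1* and *Utf1*) fell and 0 rose in set 2 at a limma adjusted p under 0.05, where 3.67% of all genes fell. At an unadjusted p under 0.05, 4 were lower and 1 higher, and the summed level of the list overlapped, at 1070 to 1372 RPKM in set 1 and 1049 to 1275 RPKM in set 2. Of the 4 neural markers tested, 1 (*Nes*) rose at a limma adjusted p under 0.05, where 7.62% of all genes were called in either direction. At an unadjusted p under 0.05, 3 (*Nes*, *Neurod1* and *Tubb3*) were higher and 0 lower, where 26.5% of all genes differed in either direction. The median log2 difference of the 4 was 0.50, against -0.04 over all genes. Trophectoderm markers summed to between 7.53 and 9.18 RPKM in set 1 and between 9.29 and 15.1 RPKM in set 2. Of the 4 listed, *Tfap2c* alone was at a mean of at least 1 RPKM, and *Cdx2*, a defining marker, was at 0 in all libraries of set 2. Neural markers summed to 19.3 to 28.0 RPKM and 26.8 to 38.4 RPKM, which overlap, as did the sums for mesoderm (2.00 to 2.49 and 1.44 to 2.06 RPKM) and fibroblast markers (2.61 to 5.46 and 3.27 to 3.64 RPKM). The primitive endoderm sum was 0.964 to 1.34 RPKM in set 1 and 0.569 to 0.803 RPKM in set 2. The part of these in the *Rbbp7* difference was not tested. Less RNA per cell and fewer cells of a type cannot be told apart in such bulk libraries.

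Further genes around PRC2 were examined as lists. *E130012A19Rik*, an older symbol of *Epop*, a PRC2.1 partner, was at 60.2, 47.4 and 50.0 RPKM in set 1 and at 51.2, 44.7 and 46.3 RPKM in set 2. In both sets the library with the word control was the highest, and its change for Ring1BKD was -0.26 (SE 0.13, limma adjusted p 0.617). *Phf1*, the remaining Polycomb-like gene, was at 2.06 to 3.19 RPKM, above *Phf19* in every library. *Kdm6a*, a demethylase that removes the mark PRC2 lays down, was at 5.98 to 8.44 RPKM. *Kdm6b*, another such demethylase, was at 5.04, 5.05 and 8.16 RPKM in set 1 and at 6.88, 5.07 and 8.02 RPKM in set 2. Its level was highest in the library with the file word Dzip3KD in each set. The change was 0.40 against the word control (SE 0.18, limma adjusted p 0.754) and 0.59 against Ring1BKD (SE 0.18, limma adjusted p 0.313).

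Of the 7 partners and demethylases and the 5 Cbx readers of the mark, 0 passed at a limma adjusted p under 0.05 in any of the 6 contrasts. Over all genes, 0% to 7.62% passed per contrast. At an unadjusted p under 0.05 there were at most 1 of 7 and 1 of 5 per contrast. The share of all genes at that level ran from 5.10% to 26.5%, so these counts are no result about the lists. The 17 genes of other complexes that hold Rbbp4 or Rbbp7, such as the NuRD and Sin3 deacetylase complexes and the CAF-1 chaperone, likewise gave 0 adjusted calls. In set 2 against set 1, however, 7 of 17 had an unadjusted p under 0.05 and all 7 were lower, where 14.4% of all genes were lower at that level. These, named after their values were seen, were *Chaf1b*, *Chd4*, *Gatad2a*, *Hdac2*, *Mta2*, *Mta3* and *Sin3a*. The median of the 17 was -0.24, against -0.04 over all genes.

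The genes most like *Ezh2* over the 6 libraries, among 5509 others with a mean of at least 5 RPKM, were *Ankmy2* (Pearson r of log2(RPKM + 1) 0.999), *Sh3bp4* (0.993) and *Csrnp1* (0.979). For *Ezh1*, among 5510, they were *Sssca1* (0.970), *Inip* (0.969) and *Msi2* (0.968). With 6 libraries that fall into 2 sets and many genes to choose from, such values describe these libraries only.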

How the data were processed

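Stranded mRNA libraries of mES cells (6 libraries) were sequenced on a MiSeq. The authors aligned reads to mouse mm9 with the Illumina Analysis Pipeline, allowing 1 mismatch, and deposited RPKM values of reads assigned uniquely to a gene, 1 list per library without pooling. The annotation is not given in the sources used here, nor whether counting used strand. *Rbbp7*, *Mtf2* and *Rbbp4* each overlap a listed gene on the opposite strand.

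Groups came from the sample labels. The file word and number served for a second, separate comparison. Whole reads were recovered for 15489 genes (92.9%) from the steps between RPKM values, with lengths of 100 to 20000 bp and a relative tolerance of 3e-05, and depth was scaled to transcript lengths of GENCODE M1 (NCBIM37, which is mm9). After random noise of 5%, 0.1% of genes above 0 in all libraries were resolved, against 92.6% before. Values were fitted as log2(RPKM + 1) by limma (version 3.58.1, under R version 4.3.3), its variance trend included, over genes that averaged 0.5 RPKM or more, with Benjamini-Hochberg adjustment over all genes and a threshold of 0.05. A fold change on this scale understates the change of low genes. Labels were fitted without covariates, and file words with the set as a term. Subunit levels were compared by exact permutation in Python 3.11.15. The code was tested on simulated data. Subunits, gene lists and tests were chosen with earlier results of these data known. All 10 subunits, both targeted genes, *Phf1*, *Epop*, *Kdm6a*, *Kdm6b* and the 3 genes most like *Ezh2* and *Ezh1* were named by rule, beside list genes past the threshold. Alternatives were the pseudocount (0.1), no filter, scaling to a common 75th percentile, no variance trend, the replicate block, the set or word term, fewer libraries and, added after the data were seen, voom on recovered reads and a crossed block. *Elf5* and *Col3a1* were not used here. No protein or promoter sequence is printed.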

Additional observations from a re-analysis of the deposited data

How the results depend on the processing

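Of the 774 values of subunit changes under alternatives, 765 kept their side of the threshold and their sign, or changed sign from a reported difference that was within its SE (45 values). Of these 45, 6 exceeded their own SE after the change. They were *Rbbp4* between the sets at -0.16 without either library that carries the word Dzip3KD, *Rbbp4* for Dzip3KD against Ring1BKD at 0.18 without Ring1B-KD 1, *Mtf2* and *Jarid2* for Ring1BKD at 0.13 and 0.12 under 75th percentile scaling, and *Ezh1* for the label Dzip3-KD, which ran from -0.33 without Dzip3-KD 2 to 0.55 without Dzip3-KD 1. Set as a term turned the label changes of *Rbbp7* to 0.20 for Ring1B-KD and 0.36 for Dzip3-KD, and those of *Ezh2* and *Phf19* for Dzip3-KD to 0.018 and -0.22. Such a fit reaches Dzip3-KD only through the libraries labelled Ring1B-KD. Leaving out 1 library gave -0.78 to 0.20 for *Rbbp7* and -0.45 to 0.037 for *Suz12* in Ring1B-KD against control by label, the upper values without Ring1B-KD 2 and Ring1B-KD 1 respectively, and -0.012 to 0.30 for *Rbbp7* by the word Ring1BKD, the lower value without Dzip3-KD 1. The order of mean levels was the same in every alternative run for it, and the shares of the paralogs moved by less than their SD between libraries.

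Counts of genes called moved more. For Dzip3-KD against control by label there were 0 genes, 1 with the replicate block, 28 in a fit of the 4 libraries compared alone, and 0 to 28 without 1 library, the upper value without Ring1B-KD 1 and 27 without Ring1B-KD 2. Deviations from the label means gave no sign of a pairing by replicate number (correlations -0.04, -0.24 and 0.04). Replicates of a label also differ in file word, and for Ring1B-KD in set, so these correlations cannot exclude a pairing. The replicate block changed the call of no subunit. The block left 0 genes for Ring1B-KD against control, and a crossed block, added after the data were seen, left 0 genes for either label. For the word Ring1BKD the 48 genes became 21 with a pseudocount of 0.1, 0 without a filter, 3 without the variance trend, 0 without the set term, 73 with voom on recovered reads, and 0 to 65 without 1 library, the 0 without Dzip3-KD 1. For Dzip3KD the 0 genes became 1 with voom and 0 to 5 without 1 library. For Dzip3KD against Ring1BKD the 78 genes became 42, 0, 49, 0 and 136 in the same order, and 23 to 172 without 1 library. Between the sets the 879 genes became 0 without a filter, 495 without the variance trend, 1471 with voom, and 264 to 582 without 1 library, the fewest without Dzip3-KD 1. The causes were not tested. Where 1 library of a label remained, it was assumed to vary like the other groups. Depth limits *Phf19* (2 to 18 reads) and *Ezh1* (23 to 59 reads) most.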
